A study of Micropterus salmoides with 24 samples.

Results

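The 200 transcript contigs described here were the most abundant of those that carried 8 to under 64 times more of the counts in head kidney than in trunk kidney. They were taken from 78435 contigs counted in 24 RNA-seq libraries of largemouth bass (Micropterus salmoides), a freshwater fish. Each count was divided by the total of its library and expressed as CPM, counts per 1000000 counts, and a contig not listed in a library was set to 0. Of all contigs, 5310 had a mean CPM over the 12 head kidney libraries that was at least 8 times and less than 64 times the mean over the 12 trunk kidney libraries, and the 200 with the highest head kidney mean were kept. The higher level in head kidney is therefore how the contigs were chosen and is given below as a description, with no test.

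Adult males were kept for 21 days in clean water as a control, in water with 10 mg/L glyphosate, or in water with Rodeo at the chemically matching glyphosate concentration. There were 4 fish in each of 4 tanks per treatment, and each tissue and treatment had 4 libraries. Glyphosate is a herbicide that blocks an enzyme of aromatic amino acid synthesis in plants and microbes, and Rodeo is a commercial glyphosate formulation. RNA came from homogenised pieces of whole tissue and was selected for poly(A) tails, so that fewer cells of a type and less RNA per cell cannot be told apart. The tank of each sequenced fish was not given in the sources used here.

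In bony fish the anterior, or head, kidney has largely lost its filtering units and serves as a blood-forming and lymphoid organ. It also holds the interrenal cells, which make cortisol, and the chromaffin cells, which make catecholamines. The trunk kidney carries the nephrons that filter blood and recover salts, with blood-forming tissue lying between the tubules. Contigs that are abundant in head kidney and present at a lower level in trunk kidney can be followed in both tissues, which is what the comparisons below do.

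None of the contig identifiers matched a gene symbol, locus tag or accession in the reference table of this species, so the contigs are named by identifier only, and no cell type marker could be looked up. Of the 200 contigs, 140 had identifiers beginning with LMB_Assem, 45 with contig and 15 with isotig. The LMB_Assem share was 70% among them and 31.95% among all 78435 contigs. The number after LMB_Assem was 0 in 41 of them. Of the others, 2 shared the number 870 and 2 the number 1290, and reads of contigs that share sequence may have been split between them in counting. Contig sequences were not given in the sources used here. Shared sequence among contigs numbered 0, or with other numbers or prefixes, could therefore not be looked up.

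Library totals ran from 9871623 counts in head kidney control 3 to 29858387 in trunk kidney control 2, and the 200 contigs held 101880 to 3239295 counts per library. Every one of them passed the filter on low counts in both tissues. The labels of the 2 tissues could not be aligned fish by fish. Over 57 contigs that were either present or nearly absent in single libraries of both tissues, 8 head kidney libraries each had the same pattern as 1 trunk kidney library, at 98.2% or more of the contigs, while every other pair of libraries was alike at 86.0% of them at most. None of these 8 pairs carried the same treatment label on both sides, for example head kidney control 3 with trunk kidney Rodeo 1, and head kidney glyphosate 3 with trunk kidney control 1. Which label holds was not tested, so each group below consists of the libraries labelled with that treatment. Results by treatment are also given for the libraries that matched none, which are head kidney control 1, glyphosate 2, Rodeo 2 and Rodeo 4, and trunk kidney control 4, glyphosate 2, glyphosate 3 and Rodeo 3.

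The ratio of the head kidney mean to the trunk kidney mean had a median of 13.3. It was between 8 and 16 for 123 contigs, between 16 and 32 for 48, and between 32 and 64 for 29. At the lower limit, LMB_Assem.6966.C1 was inside with a ratio of 8.02, and contig65118 was outside with 7.96. At the upper limit, contig06324 was inside with 61.7, and contig56602 was outside with 65.4. The contig ranked last, LMB_Assem.6842.C1, had a head kidney mean of 118.4 CPM, and the first one left out, LMB_Assem.1687.C1, had 118.1 CPM, so contigs on either side of the rank limit differ little. All 12 head kidney libraries lay above all 12 trunk kidney libraries for 178 of the 200 contigs, and the tissues overlapped for 22. The rule chose the contigs on the means of these same libraries, so this separation follows largely from the choice. Its share over all contigs was not counted.

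Counts were concentrated in a few contigs. The head kidney mean ran from 118.4 to 16733 CPM with a median of 215 CPM, and the trunk kidney mean from 2.55 to 1404 CPM with a median of 15.5 CPM. The single most abundant contig, LMB_Assem.1290.CB1, made up 15.8% of their summed CPM in head kidney and 19.7% of it in trunk kidney. The 10 most abundant made up 47.7% and 44.1%, and the 100 most abundant 84.9% and 83.9%. Contig lengths were not used, so a higher CPM of one contig than of another is a larger share of reads and not of transcripts.

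**Figure D1:**
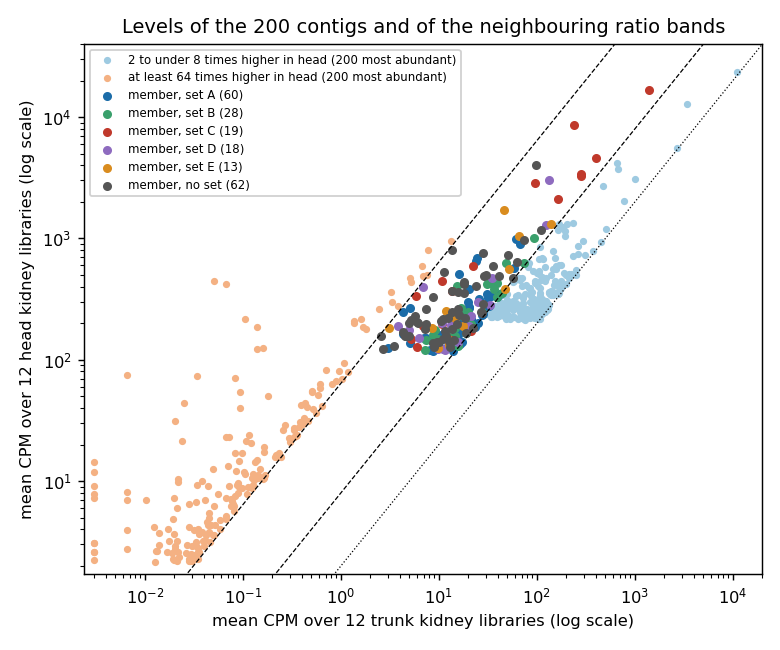
Mean CPM over 12 trunk kidney libraries (horizontal, log scale) and over 12 head kidney libraries (vertical, log scale) for the 200 contigs, coloured by the sets described in the text, and for the 200 most abundant contigs of each neighbouring ratio band in paler colours, with contigs at 0 in trunk kidney drawn at the left edge. Dashed lines mark ratios of 8 and 64 and the dotted line a ratio of 2; 7 of the 10 most abundant contigs belong to set C, drawn in red.

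LMB_Assem.1290.CB1 had 10464, 6913, 21187 and 2445 CPM in the 4 head kidney control libraries. It had 20007, 7203, 36313 and 22572 CPM in the 4 glyphosate libraries, and 13840.1, 7175, 15584 and 37095 CPM in the 4 Rodeo libraries. The highest head kidney library was 15.2 times the lowest, and the 3 groups overlapped throughout. In trunk kidney it had 3308, 553, 543 and 939.7 CPM in controls, 932, 305, 1200.3 and 2393 CPM with glyphosate, and 834, 885, 1157 and 3791 CPM with Rodeo. Trunk kidney control 1 and Rodeo 4 stood above the other libraries of their groups, and the highest trunk kidney library was 12.4 times the lowest.

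The next contig, LMB_Assem.870.CB4, had 4974, 4506, 7663 and 1357 CPM in head kidney controls, 8086, 3742, 19087 and 14509 CPM with glyphosate, and 10445, 4412, 7834 and 17265 CPM with Rodeo. LMB_Assem.870.CB1, with the same assembly number, followed with 1684, 1564, 3720 and 525 CPM, then 3048, 1211, 6111 and 5657 CPM, and 3834, 2043, 3385 and 7751 CPM in the same order of groups. Both were lowest in control 4 and highest in glyphosate 3 and Rodeo 4. Their head kidney means were 36.4 and 11.9 times their trunk kidney means.

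LMB_Assem.3620.C1 ran from 626 CPM in head kidney control 4 to 12186 CPM in glyphosate 3, with a median of 3909 CPM over the 12 libraries. LMB_Assem.12569.C1 ran from 486 to 8954 CPM in the same pair of libraries, and LMB_Assem.1015.CB4 from 558 to 7454 CPM. LMB_Assem.12745.C1 was likewise low in control 4, at 328 CPM, and highest in glyphosate 3, at 6924 CPM. It stood apart from the others in glyphosate 4, Rodeo 1 and Rodeo 2, where it had 619, 260 and 279 CPM while LMB_Assem.3620.C1 had 5094, 1630 and 1675 CPM.

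The other 3 of the 10 most abundant contigs varied far less between head kidney libraries. LMB_Assem.0.C9584 had 5979, 5170, 2495 and 3533 CPM in controls, 4644, 4971, 5241 and 2551 CPM with glyphosate, and 3013, 3186, 4147 and 3750 CPM with Rodeo, a 2.40-fold range. LMB_Assem.12495.C1 ranged 3.19-fold, from 1414 CPM in glyphosate 3 to 4509 CPM in Rodeo 2. LMB_Assem.12702.C1 ranged 3.36-fold, from 799 CPM in glyphosate 4 to 2686 CPM in control 3. For all 3 contigs the 3 head kidney groups overlapped.

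In head kidney the 200 contigs together took 9.51% ± 2.61 (SD, n = 4) of the library in controls, 11.1% ± 2.68 with glyphosate and 11.1% ± 2.41 with Rodeo. The 12 libraries ran from 7.13% in control 4 to 14.6% in glyphosate 3, and the groups overlapped. In trunk kidney they took 0.744% ± 0.185 in controls, 0.588% ± 0.131 with glyphosate and 0.805% ± 0.258 with Rodeo (SD, n = 4 each). Those 12 libraries ran from 0.397% in glyphosate 2 to 1.19% in Rodeo 4, a 3.00-fold range against 2.05-fold in head kidney, and these groups overlapped as well. The order of the trunk kidney groups depended on the scale: with TMM scaling over all 24 libraries, which sets each library's scale from the bulk of its contigs, the sums came to 0.808%, 0.885% and 0.912%, so that glyphosate moved from below the controls to above them. The libraries that matched none in the other tissue had 9.44% (control 1), 8.06% (glyphosate 2), 8.64% (Rodeo 2) and 14.4% (Rodeo 4) in head kidney. In trunk kidney they had 0.784% (control 4), 0.397% (glyphosate 2), 0.613% (glyphosate 3) and 0.659% (Rodeo 3).

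The order of the head kidney groups rested on the 10 most abundant contigs. Without them the rest took 5.94% of the library in controls, 4.90% with glyphosate and 5.73% with Rodeo, so that the lowest mean moved from controls to glyphosate. In trunk kidney the same contigs took 0.438%, 0.325% and 0.433%.

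**Figure D2:**
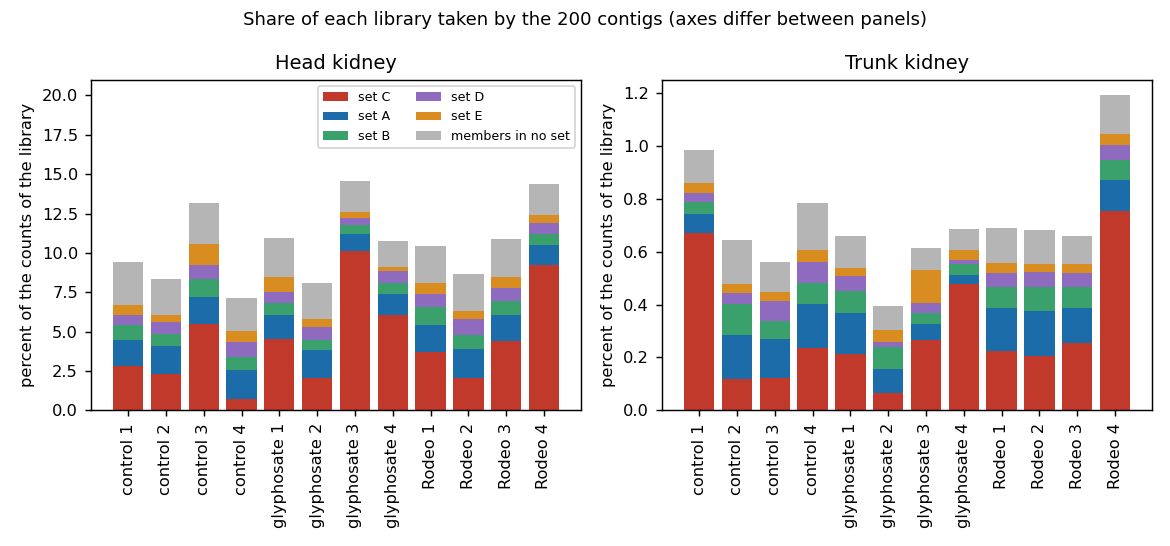
Share of the counts of each library (percent) taken by the 200 contigs in 12 head kidney libraries (left) and 12 trunk kidney libraries (right, with a smaller axis), stacked by the sets described in the text. The head kidney bars lie between 7.13% and 14.6% and the trunk kidney bars between 0.397% and 1.19%; the red part, set C, makes most of the difference between the highest and lowest bars.

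The contigs differed widely in how steady they were. The highest head kidney library was a median of 2.95 times the lowest, with 30 contigs under 2-fold and 28 over 8-fold. In trunk kidney the median was 5.33-fold, with 1 contig under 2-fold and 67 over 8-fold. Within groups, the SD of log2 scaled CPM had a median over the contigs of 0.477 in head kidney and 0.584 in trunk kidney, against 0.749 and 0.680 over all contigs tested. All contigs tested include low ones and were not matched to the 200 in level, and the part of level in this difference was not tested. The 200 most abundant contigs 2 to under 8 times higher in head kidney were steadier, at 0.346 and 0.415. Those at least 64 times higher were less steady, at 0.916 (197 tested) and 1.09 (40 tested). Contigs 8 to under 64 times higher in trunk kidney had 0.587 and 0.579. Scaled CPM divides by a library total adjusted by the TMM method. The steadiest contig in head kidney was LMB_Assem.10131.C1, at 163, 179, 185 and 210.5 CPM in controls, 163, 186, 149 and 187 CPM with glyphosate, and 204, 202, 177 and 168 CPM with Rodeo. It ranged 1.42-fold over all 12 libraries, and it is named here because of that value.

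At the other end were contigs that were present in some libraries and nearly absent in others. LMB_Assem.0.C214 had 145 to 503 CPM in 9 head kidney libraries, but 1.97 CPM in glyphosate 4, 1.61 CPM in Rodeo 1 and 12.7 CPM in Rodeo 3. The contig contig12814_1 had 91.9 to 430.1 CPM in 9 head kidney libraries, and 2.42 CPM in glyphosate 1, 10.97 CPM in Rodeo 2 and 1.25 CPM in Rodeo 4. Both, together with contig24281, were also near or at 0 in some trunk kidney libraries, and contig06893 was at 0 in 1 of them. A count of 0 allows up to 3 counts in that library, and no contig of the 200 was at 0 in a head kidney library.

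For glyphosate against control in head kidney, none of the 200 contigs reached an adjusted p under 0.05 in edgeR's quasi-likelihood test, and none did among all 38656 contigs tested. DESeq2 called none of the 200 either, and 0.0681% of all contigs. The direction was nevertheless uneven. The fitted log2 fold change was below 0 for 163 of the 200 contigs, with a median of -0.40 against 0.05 over all contigs tested. At an unadjusted p under 0.05, 51 were lower and 1 was higher with glyphosate, which is 25.5% and 0.500% of them, while over all contigs tested 3.73% were lower and 2.69% higher. The scaled CPM of the 2 groups did not overlap for 15 contigs, all lower with glyphosate, where 1.72% of all contigs were lower without overlap and 1.76% higher. The lowest adjusted p among them was 0.761.

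The lower levels were not shared by all libraries of the groups. Relative to each contig's mean over the 12 head kidney libraries, the average log2 deviation of the 200 contigs was 0.22, -0.19, 0.53 and -0.29 in controls 1 to 4. It was 0.08, -0.22, -0.32 and -0.48 in glyphosate 1 to 4. The imbalance of 51 lower to 1 higher was gone without control 3, with 14 lower and 13 higher. The count of 51 was 28 without control 1 (2 higher), 17 without glyphosate 3 and 17 without glyphosate 4 (1 higher each), and the 1 higher became 3 without control 2 and 11 without glyphosate 2, beside 69 and 53 lower. The count of 51 was 12 (with 7 higher) in the libraries that matched none, where 2 contigs passed the adjusted threshold with 1 library in each of the 2 groups. Scaled by library totals alone, 31 were lower and 5 higher. The median kept its sign in each of these fits, between -0.52 and -0.31 with 1 library left out and at -0.41 in the libraries that matched none. The uneven direction was not particular to these 200: the 200 most abundant contigs 2 to under 8 times higher in head kidney had 53 lower and 0 higher, with a median of -0.43. The 200 most abundant of those at least 64 times higher, of which 197 were tested, had 9 lower and 13 higher, with a median of -0.15.

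The contig contig75030 had the smallest p among the contigs lower with glyphosate. Its scaled CPM was 356, 304, 535 and 411 in controls and 216, 276, 215 and 237 with glyphosate, so every glyphosate library lay below every control. The log2 fold change was -0.77 (SE 0.220, adjusted p = 0.761 in edgeR). LMB_Assem.2187.C1 was second, at 203, 69.4, 291 and 67.3 in controls and 72.7, 59.1, 38.5 and 38.0 with glyphosate. Its groups overlapped, and the log2 fold change was -1.60 (SE 0.465, adjusted p = 0.761 in edgeR).

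The 2 contigs with the smallest p in the other direction rested on single libraries or on wide spreads. The contig isotig30969 had a scaled CPM of 6.54, 16.2, 62.1 and 10.2 in controls and 2531, 73.4, 5.80 and 16.8 with glyphosate. Its log2 fold change of 4.80 (SE 1.55, adjusted p = 0.761 in edgeR) comes from glyphosate 1, since the other 3 libraries lie within or near the control range. LMB_Assem.870.CB4, the second most abundant contig, had a log2 fold change of 1.17 (SE 0.598, adjusted p = 0.761 in edgeR), with overlapping groups as listed above. In the libraries that matched none its value was -0.75, the opposite direction.

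For Rodeo against control in head kidney the 200 contigs were close to balance. The fitted log2 fold change was above 0 for 96 and below 0 for 104, and the median was -0.02 against -0.01 over all contigs tested. No contig of the 200 passed the adjusted threshold in edgeR or DESeq2, where DESeq2 called 0.155% of all contigs. At an unadjusted p under 0.05 there were 6 higher and 2 lower, or 3% and 1%, against 2.27% and 2.43% of all contigs tested. The groups did not overlap for 1 contig, higher with Rodeo, where the shares over all contigs were 1.80% higher and 1.32% lower. The number higher was 25 without control 3 and 10 without Rodeo 2, and it was 3, 2, 1 and 2 without control 1, control 2, control 4 and Rodeo 4. The number lower was 5 without control 2, 4 without Rodeo 1, 1 without Rodeo 2 and 0 without Rodeo 4. The median lay between -0.09 and 0.12 with 1 library left out. In the libraries that matched none there were 13 higher and 14 lower, with a median of -0.24, and 1 contig passed the adjusted threshold.

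LMB_Assem.1573.C1 had a scaled CPM of 496, 445, 753 and 245 in controls and 905, 691, 696 and 1091 with Rodeo, a log2 fold change of 0.80 (SE 0.337, adjusted p = 0.998 in edgeR). LMB_Assem.12740.C1 had 155, 54.2, 92.4 and 34.2 in controls and 268, 155, 201 and 357 with Rodeo, a log2 fold change of 1.55 (SE 0.658, adjusted p = 0.998 in edgeR). In both, control libraries reached the lowest Rodeo library. LMB_Assem.1269.C1 had 256, 140, 229 and 142 in controls and 134, 43.0, 180.0 and 78.9 with Rodeo, a log2 fold change of -0.82 (SE 0.353, adjusted p = 0.998 in edgeR). LMB_Assem.1268.C1, the second contig lower with Rodeo, had a log2 fold change of -0.69 (SE 0.318, adjusted p = 0.998 in edgeR).

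The 2 treated groups differed from each other in the direction opposite to glyphosate against control, and this comparison uses the same 4 glyphosate libraries. For Rodeo against glyphosate, 169 of the 200 contigs had a fitted log2 fold change above 0, with a median of 0.39 against -0.05 over all contigs tested. At an unadjusted p under 0.05, 48 were higher and 2 lower with Rodeo, or 24% and 1%, against 5.01% and 4.15% of all contigs tested. The groups did not overlap for 25 contigs, all higher with Rodeo, against 4.11% of all contigs higher without overlap and 3.03% lower. None of the 200 reached the adjusted threshold in edgeR (lowest adjusted p 0.451). The count of 48 was 26 without Rodeo 1, 23 without glyphosate 3, 22 when scaled by library totals alone and 20 (with 6 lower) in the libraries that matched none, where 3 contigs passed the adjusted threshold. The same count rose to 63 without Rodeo 4, 60 without glyphosate 1, 60 with the replicate number as a block and 63 without the filter. The 2 lower were 5 without glyphosate 4 and 1 without glyphosate 1, Rodeo 1, Rodeo 2 or Rodeo 4. The median was 0.20 both on library totals and in the libraries that matched none. With library totals the median of all contigs tested was -0.23. The neighbouring 200 contigs of the band from 2 to under 8 had 89 higher and 0 lower, with a median of 0.49.

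LMB_Assem.2569.C1 had the smallest p. Its scaled CPM was 403, 330.0, 355 and 396 with glyphosate and 689, 1131, 977 and 558 with Rodeo, and the head kidney controls lay between the 2 groups at 594, 525, 628 and 629, overlapping the lowest Rodeo library. The log2 fold change of Rodeo against glyphosate was 1.18 (SE 0.232, adjusted p = 0.451 in edgeR). DESeq2 gave 1.15 (SE 0.264, adjusted p = 0.0122). The contig contig57217 had 649, 424, 375 and 346 with glyphosate and 1222, 891, 1564 and 759 with Rodeo, without overlap, and its controls at 910.2, 508, 1102 and 589 spanned part of both groups. Its log2 fold change was 1.31 (SE 0.312, adjusted p = 0.451 in edgeR), and DESeq2 gave 1.28 (SE 0.340, adjusted p = 0.0489). They were the only 2 of the 200 that DESeq2 called, against 0.346% of all contigs.

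In the other direction, contig56575 had 419, 383, 561 and 134 with glyphosate and 88.2, 199, 180.3 and 185 with Rodeo. Glyphosate 4 lay among the Rodeo libraries, and the log2 fold change was -1.20 (SE 0.471, adjusted p = 0.479 in edgeR). LMB_Assem.40.C1 had 212, 215, 137 and 87.2 with glyphosate and 62.9, 82.5, 140.4 and 90.9 with Rodeo, a log2 fold change of -0.79 (SE 0.361, adjusted p = 0.538 in edgeR).

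**Figure D3:**
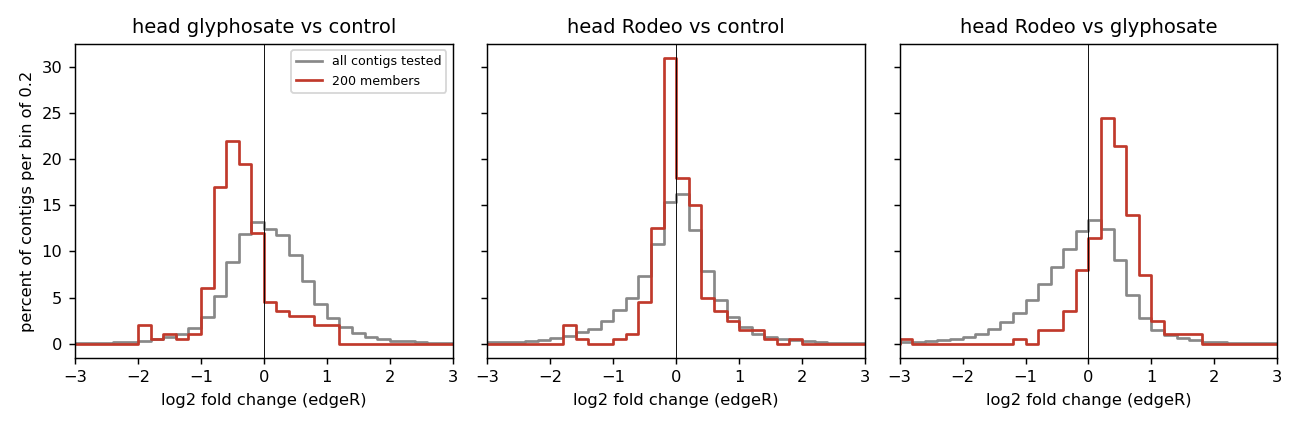
Distribution of log2 fold changes fitted by edgeR in head kidney, as the percent of contigs in bins of 0.2, for the 200 contigs (red) and for all 38656 contigs tested (grey), with glyphosate against control, Rodeo against control and Rodeo against glyphosate from left to right. The red curve lies left of the grey one in the first panel (medians -0.40 and 0.05), over it in the second (-0.02 and -0.01) and right of it in the third (0.39 and -0.05).

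Among the 10 most abundant contigs, no comparison in either tissue gave an adjusted p under 0.509. Against control in head kidney, the log2 fold changes of LMB_Assem.1290.CB1 were 0.92 (SE 0.671) with glyphosate and 0.87 (SE 0.670) with Rodeo. Those of LMB_Assem.870.CB1 were 0.95 (SE 0.615) and 1.23 (SE 0.619), and those of LMB_Assem.1015.CB4 were 1.09 (SE 0.660) with both. LMB_Assem.12702.C1 had -0.73 (SE 0.368) with glyphosate and -0.32 (SE 0.366) with Rodeo. None of these estimates passed the adjusted threshold in edgeR.

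In trunk kidney none of the 200 contigs reached the adjusted threshold in edgeR or DESeq2 in any of the 3 comparisons. Over all contigs tested, edgeR called 0.0186% for Rodeo against control and none for the others, and DESeq2 called 0.278% for glyphosate against control, 0.114% for Rodeo against control and 0.667% for Rodeo against glyphosate. For the 200, the counts at an unadjusted p under 0.05 were near those of all 43072 contigs tested. For glyphosate against control, 9 were higher and 14 lower, or 4.5% and 7% against 5.78% and 4.72%, with a median log2 fold change of -0.10 against -0.08. For Rodeo against control, 3 were higher and 6 lower, or 1.5% and 3% against 1.66% and 2.98%, with a median of 0.09 against -0.03. For Rodeo against glyphosate, 7 were higher and 9 lower, or 3.5% and 4.5% against 2.97% and 4.68%, with a median of 0.17 against 0.03. Groups did not overlap for 1, 8 and 8 contigs that were higher, against 1.46%, 2.06% and 2.30% of all contigs, and for 3, 1 and 0 that were lower, against 2.72%, 2.37% and 1.89%.

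The trunk kidney counts depended on the scaling. Trunk kidney glyphosate 2, 3 and 4 stood apart in composition, and the part of this in the results was not tested. Their TMM factors were 0.802, 0.766 and 0.614, against 0.917 to 1.32 in the other trunk kidney libraries. The 200 most abundant contigs 8 to under 64 times higher in trunk kidney took 12.3%, 8.14% and 9.88% of these 3 libraries in the same order, against 5.42% to 7.52% of the controls. Scaled by library totals alone, glyphosate against control gave 5 higher and 43 lower, with a median of -0.52 for the 200 and -0.53 for all contigs, a shift that all contigs shared. Rodeo against glyphosate gave 28 higher and 5 lower on that scale, with medians of 0.55 and 0.42. With TMM scaling, the 14 lower contigs of glyphosate against control were 23 without control 1, 27 without glyphosate 1, 4 without control 2, 8 without control 4, and 6 and 5 without glyphosate 3 and 4. Its median turned to 0.02 without control 2 or control 4. For Rodeo against control, the 3 higher contigs were 7, 10 and 8 without control 1, control 2 and control 4, and 1 without Rodeo 3. The 6 lower were 13, 1 and 10 without control 1, control 2 and control 3, and 3 without Rodeo 2. For Rodeo against glyphosate, the 7 higher contigs were 34 without glyphosate 1 and 3 without glyphosate 4, and the 9 lower were 5 without glyphosate 3. In the libraries that matched none, the higher and lower counts were 10 and 10, 5 and 2, and 2 and 7 for the 3 comparisons in the order above, with medians of -0.29, -0.09 and 0.13, and 8, 2 and 6 contigs passed the adjusted threshold there.

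Single contigs with the smallest p in trunk kidney were mostly low. The contig isotig86029 had a scaled CPM of 22.4, 6.31, 1.93 and 4.59 in controls, 2.30, 86.8, 578 and 32.8 with glyphosate and 4.998, 9.34, 10.1 and 20.9 with Rodeo. Glyphosate 3 stood far above the other libraries, and the log2 fold change against control was 4.32 (SE 1.23, adjusted p = 0.461 in edgeR). The contig contig56575 had 4.22, 18.2, 8.24 and 16.5 in controls and 4.56, 3.88, 2.94 and 4.89 with glyphosate, a log2 fold change of -1.54 (SE 0.468, adjusted p = 0.461 in edgeR). The contig contig07326 had 10.8, 10.9, 9.68 and 15.9 in controls and 20.3, 23.6, 22.99 and 23.1 with Rodeo. Its groups did not overlap, and the log2 fold change was 0.93 (SE 0.278, adjusted p = 0.972 in edgeR). LMB_Assem.5456.C1 had 5.47, 6.41, 2.61 and 3.97 with glyphosate and 10.9, 11.02, 9.92 and 12.7 with Rodeo, also without overlap, a log2 fold change of 1.27 (SE 0.382, adjusted p = 0.450 in edgeR). LMB_Assem.0.CB2459 had the smallest p among the contigs lower with Rodeo against control. Its log2 fold change was -1.44 (SE 0.467, adjusted p = 0.972 in edgeR), where control 2 alone had 51.8 and the other 7 libraries 6.45 to 15.1.

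Whether an effect differed between the tissues was tested as an interaction over all 24 libraries, taken as independent and as labelled, although 8 pairs of head and trunk kidney libraries matched across different treatment labels. For glyphosate, no contig of the 200 passed the adjusted threshold in edgeR (lowest adjusted p 0.289). At an unadjusted p under 0.05, 5 were higher and 21 lower in head kidney relative to trunk kidney, or 2.5% and 10.5%, against 7.18% and 4.83% of the 52407 contigs tested. The median difference in log2 fold change was -0.26 against 0.28. The 21 were 10 without head kidney control 3, 10 without head kidney glyphosate 3, 12 without head kidney glyphosate 4, and 11 to 13 without trunk kidney control 1, control 3, glyphosate 1 or glyphosate 2. The 5 were 10 without head kidney control 1, 13 without trunk kidney control 1, 15 without trunk kidney glyphosate 1, and 3 without trunk kidney control 2 or glyphosate 4. For Rodeo none of the 200 was called by edgeR or DESeq2, against 0.00572% and 0.239% of all contigs. At an unadjusted p under 0.05, 5 were higher and 3 lower, or 2.5% and 1.5%, against 3.35% and 2.69%, with medians of -0.02 and 0.03. The 5 were 8 without head kidney control 1, 9 without trunk kidney control 1, and 3 without trunk kidney control 2, Rodeo 2 or Rodeo 3. The 3 were 9 without head kidney Rodeo 1, 6 without head kidney control 2, 7 without trunk kidney control 2 or control 4, and 0 without head kidney control 3. They were 1 without head kidney control 1, Rodeo 2, Rodeo 3 or Rodeo 4, or trunk kidney control 3. In the 8 libraries that matched none, where 4 of the 6 groups have 1 library, the glyphosate interaction gave 7 higher and 10 lower and the Rodeo interaction 3 and 3, and no contig of the 200 passed the adjusted threshold in edgeR.

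LMB_Assem.2569.C1 again had the smallest p, with a difference of -2.08 (SE 0.557, adjusted p = 0.289 in edgeR). In trunk kidney its scaled CPM was 12.7, 29.1, 11.7 and 33.3 in controls and 93.8, 72.1, 33.3 and 33.8 with glyphosate, while in head kidney every glyphosate library lay below every control. DESeq2 gave a difference of -2.16 (adjusted p = 0.0460) for it. DESeq2 also gave -6.36 (adjusted p = 0.0421) for isotig86029, whose trunk kidney level rests on glyphosate 3. DESeq2 called 0.449% of all contigs in that test.

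Across the 12 trunk kidney libraries the 200 contigs varied together to a modest degree, and how much depended on the scale. Over their 19900 pairs, Pearson's r of log2 scaled CPM had a median of 0.14, with a 10th percentile of -0.43 and a 90th of 0.66. Over pairs of all contigs tested the median was 0.01. Pairs with r of at least 0.5 made up 20.3% of the pairs of the 200 and 11.8% of all pairs. On CPM by library totals, the medians were 0.40 and 0.25 and the shares 42.3% and 26.8%. All pairs share the same 12 libraries, and on library totals also the composition of the 3 glyphosate libraries named above. With the mean of each treatment group removed the TMM-scaled median was 0.15, and leaving out 1 library at a time gave 0.12 to 0.16.

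In head kidney the same pairs had a median r of 0.32, against 0.02 for all contigs tested, and 35.7% of them reached 0.5, against 10.8%. In neither tissue were all contigs tested matched to the 200 in level, and the part of level in these differences was not tested. Pairs of the 200 that went together in one tissue did so more often in the other. Of those with r of at least 0.5 in trunk kidney, 53.9% also reached 0.5 in head kidney, against 35.7% of all pairs of the 200. The correlation of the trunk kidney and head kidney r over pairs was 0.29. The same was not counted for pairs of all contigs, so it may not be particular to the 200. The 8 head kidney libraries that matched a trunk kidney library may also not be independent of it. With TMM scaling, other lists of contigs went together more closely than the 200 in one tissue and less closely in the other. The band from 2 to under 8 had a median r of 0.08 in trunk kidney and 0.52 in head kidney. In trunk kidney the median was 0.25 among the 40 contigs tested of the band at least 64 times higher in head kidney. It was 0.32 there among the 200 contigs 8 to under 64 times higher in trunk kidney, and both were above the 0.14 of the 200. In head kidney the medians of these last lists were 0.04 and 0.03. On library totals their trunk kidney medians were 0.43 and 0.14, against 0.40 for the 200. The list higher in trunk kidney thus went from above the 200 to below them.

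**Figure D4:**
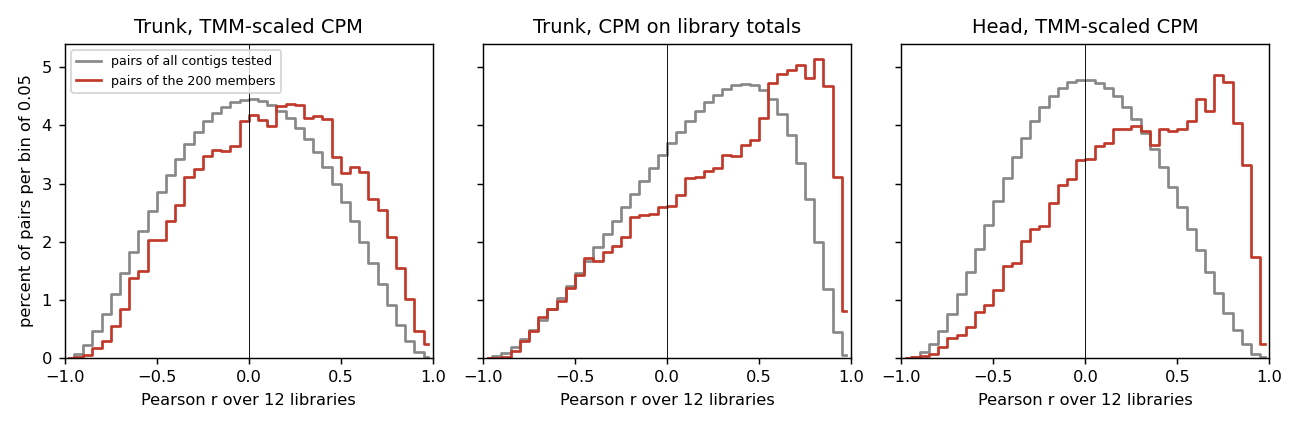
Distribution of Pearson's r over 12 libraries for pairs of the 200 contigs (red) and pairs of all contigs tested (grey), as the percent of pairs in bins of 0.05, for trunk kidney with TMM scaling, trunk kidney on library totals and head kidney with TMM scaling. The red curve is shifted to the right of the grey one in all 3 panels, with medians of 0.14 and 0.01, 0.40 and 0.25, and 0.32 and 0.02.

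Each contig was also compared with the mean log2 scaled CPM of the others across trunk kidney libraries. The correlation had a median of 0.33. It was above 0.5 for 53 contigs and below 0 for 18, and on library totals for 135 and 23. The contig contig60761 followed the others most closely, with r = 0.81, at 8.15, 17.5, 9.92 and 16.2 scaled CPM in controls, 8.61, 12.6, 14.1 and 10.1 with glyphosate and 12.4, 12.8, 16.6 and 21.0 with Rodeo. LMB_Assem.1744.C3 was second, with r = 0.79. LMB_Assem.12740.C1 and isotig127091 ran against the others most, with r = -0.50 and -0.45, but on library totals their values were 0.01 and 0.09. Their trunk kidney levels were low, 1.73 to 7.59 and 2.71 to 10.8 scaled CPM.

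Smaller sets varied together more closely. When the 200 contigs were grouped by average linkage on the TMM-scaled trunk kidney correlations and joined at r of at least 0.5, 5 sets with 10 or more contigs formed, named A to E by size, and 62 contigs fell in none. Set A had 60 contigs (most abundant LMB_Assem.12750.C1), set B 28 (LMB_Assem.3610.C1), set C 19 (LMB_Assem.1290.CB1), set D 18 (LMB_Assem.12495.C1) and set E 13 (LMB_Assem.12702.C1). Their median r within a set was 0.63 to 0.73 in trunk kidney, which is how they were formed and is no support for them. Head kidney libraries took no part in forming the sets, but 8 of them matched a trunk kidney library and may not be independent of it. In head kidney the median r within the sets was 0.52, 0.68, 0.75, 0.30 and 0.51 for A to E. Over all pairs of the 200 it was 0.32, so that set D was not tighter than the whole. On library totals the median in trunk kidney was 0.86, 0.73, 0.70 and 0.84 for A to D but 0.29 for set E.

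The sets ran apart from each other in trunk kidney with TMM scaling. This follows in part from forming them on these same correlations and is no support for them. Values between sets on library totals are not given here. The median r between contigs of A and B was 0.37 and between A and D 0.40, but between A and C it was -0.38, between A and E -0.47 and between B and C -0.32. In head kidney sets A and B went together more closely (0.58), A and E had 0.37 in place of a negative value, and A and C had -0.18.

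**Figure D5:**
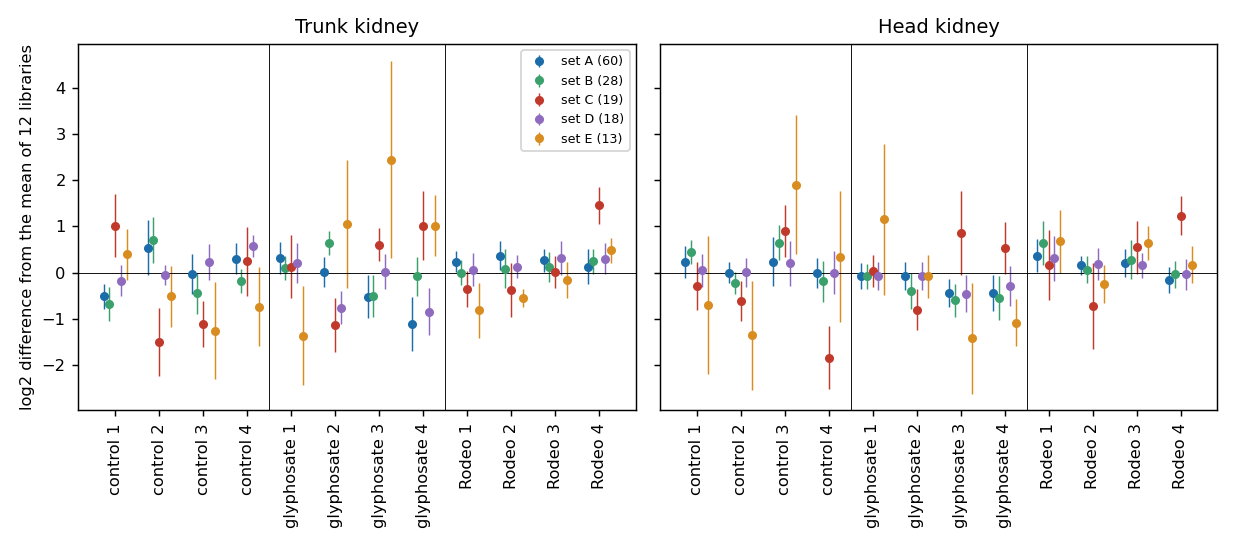
Mean log2 difference of the scaled CPM of each set from its mean over the 12 libraries of a tissue, in trunk kidney (left) and head kidney (right). Points are means over the contigs of a set, bars are SDs over those contigs and not over libraries, and vertical lines separate the treatment groups; set C reaches 1.45 in trunk kidney Rodeo 4 and -1.85 in head kidney control 4, and set E reaches 2.45 in trunk kidney glyphosate 3 and 1.90 in head kidney control 3, while sets A, B and D stay closer to 0.

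Set C took the largest share of the 5 sets, with 7 of the 10 most abundant contigs, 4.46% of the head kidney libraries and 0.301% of the trunk kidney libraries on average. In head kidney its share was 2.84%, 2.31%, 5.51% and 0.740% in controls, 4.55%, 2.05%, 10.1% and 6.06% with glyphosate, and 3.69%, 2.06%, 4.38% and 9.25% with Rodeo. The means were 2.85% ± 1.99, 5.70% ± 3.38 and 4.85% ± 3.09 (SD, n = 4 each), and the groups overlapped. In trunk kidney it was 0.671%, 0.118%, 0.121% and 0.235% in controls, 0.212%, 0.0671%, 0.265% and 0.479% with glyphosate, and 0.225%, 0.205%, 0.253% and 0.756% with Rodeo. Trunk kidney control 1, glyphosate 4 and Rodeo 4 were highest, one in each group.

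The shares of one library are bound together by its total. In trunk kidney set A was lowest in glyphosate 4 (0.0341% of the library), glyphosate 3 (0.0637%) and control 1 (0.0737%). It lay between 0.0888% and 0.172% in the other 9 libraries. Set C was high in glyphosate 4 and control 1, but in Rodeo 4, where it was highest, set A had 0.116%, and in glyphosate 3 set C was near its level in Rodeo 3, where set A had 0.136%. In head kidney set A was lowest in glyphosate 3 (1.10%), Rodeo 4 (1.24%) and glyphosate 4 (1.33%), and 1.51% to 1.86% in the others. Set E was high in trunk kidney glyphosate 3, where it took 0.125% of the library against 0.0282% to 0.0439% elsewhere.

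The sets did not have one direction in the head kidney comparisons. For glyphosate against control, the median log2 fold change was -0.47 in set A, -0.62 in set B, -0.31 in set D and -0.82 in set E, with 22, 13, 2 and 2 contigs lower at an unadjusted p under 0.05 and 1 higher, in set E, where 3.73% of all contigs tested were lower and 2.69% higher. In set C it was 0.57, with 14 of 19 contigs above 0 and none past that level. Set E spread widely, with a 10th percentile of -1.91 and a 90th of 0.04. For Rodeo against control set C had a median of 0.79, with 3 contigs higher at that level (2.27% of all contigs). Sets A, B, D and E had -0.03, -0.03, 0.12 and -0.29 with none. The average log2 deviation of set C was -0.29, -0.62, 0.90 and -1.85 in head kidney controls 1 to 4, lowest by far in control 4. It was 0.04, -0.80, 0.86 and 0.53 with glyphosate and 0.16, -0.72, 0.55 and 1.23 with Rodeo. The fold changes of set C without control 4 are not given here. For Rodeo against glyphosate the medians were 0.45 in A (19 higher, 1 lower), 0.63 in B (15 higher), 0.20 in C (1 higher), 0.35 in D (3 higher) and 0.27 in E (1 higher), where 5.01% of all contigs were higher and 4.15% lower. The sets were formed on the trunk kidney libraries, so their trunk kidney values are a description and no support. There, glyphosate against control gave -0.29 in set A (8 lower), 0.13 in B (1 higher) and 0.32 in C (none). It gave -0.41 in D (2 lower, 17 of 18 below 0) and 0.89 in E (7 higher). Set E deviated by 2.45 on the log2 scale in trunk kidney glyphosate 3, with an SD over its contigs of 2.14. Its contigs did not change alike, and the 10th and 90th percentiles of the log2 fold change were 0.16 and 4.07. The value was 4.32 in isotig86029, 3.81 in isotig94796, 3.16 in isotig100013, 4.10 in isotig101183 and 3.91 in LMB_Assem.3923.C1. In LMB_Assem.12702.C1 and in LMB_Assem.893.C1 it was 0.09. Of all contigs tested in trunk kidney, 4.72% were lower and 5.78% higher. Rodeo against glyphosate in trunk kidney gave 0.46 in set A (5 higher), and -0.02 in B and 0.05 in C with none. It gave 0.46 in D (2 higher, 18 of 18 above 0) and -0.75 in E (7 lower), where the 10th and 90th percentiles were -3.92 and -0.18. Of all contigs, 2.97% were higher and 4.68% lower. These counts rest on the same libraries as the counts over all 200 contigs, and no adjusted p passed the threshold in edgeR.

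The 8 pairs of head and trunk kidney libraries that matched on their present and nearly absent contigs were used to ask whether a set lay on the same side of its tissue mean in both. Set D did so in 6 of the 8 pairs, sets B and C in 4, set A in 3 and set E in 2. Some sides were decided by values next to the mean. Set D deviated by 7.6e-05 in head kidney control 4 and set B by 3.2e-05 in trunk kidney Rodeo 1, both counted as agreeing. Whether any of these counts differs from chance was not tested. In the pair of head kidney glyphosate 1 and trunk kidney Rodeo 4, for example, set C deviated by 0.04 in the first and 1.45 in the second on the log2 scale.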

How the data were processed

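The deposited files hold raw read counts per transcript contig, one file per library, in which contigs with no count are not listed. The submitters' processing notes name cutadapt, SAMtools, DESeq and edgeR without versions; the aligner, the counter with its strand setting, and where the contigs come from were not given in the sources used here. Per the labels' protocols, the kit was directional with poly(A) selection.

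The sample titles give the group and replicate number of each library. Nothing says whether libraries of one group came from separate tanks. The p-values set group differences against the spread between libraries, which may leave out differences between tanks. The 200 contigs, the sets and the tests were chosen with earlier results of these data known, and the sets and the libraries that matched none were defined after the values were seen. A contig counted as present or nearly absent where its highest log2 CPM was 1.5 or more in both tissues and its sorted libraries were split by over 3 on that scale, leaving 2 or more on either side; a pair of libraries matched at 90% or more.

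Counts were tested with edgeR 4.0.16 (quasi-likelihood F test, TMM scaling, filterByExpr) in R 4.3.3, with the 3 groups of a tissue in one fit and Benjamini-Hochberg adjustment over 38656 (head kidney) or 43072 (trunk kidney) contigs. The interaction used all 24 libraries and 52407 contigs. Alternatives were DESeq2 1.42.0, DESeq2 size factors, library totals, no filter, the 2 compared groups alone, replicate number as a block, each library left out, the top 100 or 400 contigs, and the ratio on TMM-scaled CPM. Log2 CPM used a prior count of 2, or 0.5 as an alternative. Standard errors come from the F statistic and the fitted fold change.

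Replicate numbers were checked as pairs. Same-numbered trunk kidney glyphosate and Rodeo libraries had a positive but low r in 4 of 4 pairs (0.107 to 0.207). No other pair of groups met this, and trunk kidney control and glyphosate had r from -0.233 to 0.355. Libraries with different numbers were not compared, and what the numbers stand for was not given in the sources used here. Whether the numbers mark true pairs is therefore not settled by these values.

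Contigs named are the 10 most abundant, those nearest each limit of the rule, those with the smallest p in each direction (2 in head kidney, 1 in trunk kidney), and the extremes of the trunk kidney correlation; others are said to be chosen for their value. The procedure was tested on simulated counts for glyphosate against control in head kidney, with 38656 contigs and 50 changed at each size. It recovered 2% at 2-fold, 48% at 4-fold and 90% at 8-fold, and called 6 unchanged contigs. The changed contigs were drawn from all but the least abundant contigs tested, and not from the 200. The 200 had a median SD within head kidney groups of 0.477, against 0.749 over all contigs tested. These rates may therefore not hold for the 200. Total counts per library set counting error only.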

Additional observations from a re-analysis of the deposited data

Results flagged for a closer look

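In 129 groups of 4 libraries, 12 held a library that stood far from the other 3. The limit used is passed in about 1 of 20 groups of independent, normally distributed values. The CPM and shares here were not put on a log scale and partly rest on the same contigs, so that rate may not hold for them. Most of the 12 were trunk kidney Rodeo 4 and trunk kidney control 1. In trunk kidney Rodeo, Rodeo 4 had 1.19% of its counts in the 200 contigs against 0.689% in the next library, 0.756% in set C against 0.253%, and 67.7 CPM of LMB_Assem.12702.C1 against 41.3. It also had 3791 CPM of LMB_Assem.1290.CB1 against 1157, 644 CPM of LMB_Assem.870.CB4 against 186, and 789 CPM of LMB_Assem.870.CB1 against 239. In trunk kidney controls, control 1 had 3308 CPM of LMB_Assem.1290.CB1 against 939.7, 508 CPM of LMB_Assem.870.CB4 against 152, and 327 CPM of LMB_Assem.1015.CB4 against 41.5.

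In trunk kidney glyphosate, glyphosate 3 had 0.125% of its counts in set E against 0.0437% in the next library, and 443 CPM of isotig86029 against 69.6. In head kidney glyphosate, glyphosate 1 had 2535 CPM of isotig30969 against 83.5. Members of one set share the libraries in which they stand out, so these are not separate events. What made these libraries stand apart was not tested.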

How the results depend on the processing

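No contig of the 200 passed the adjusted threshold in edgeR in any of the 8 comparisons with any 1 library left out. In the 6 comparisons within a tissue the same held with DESeq2 size factors, library totals, only the 2 groups, other lists, or the replicate number as a block. The block changed no adjusted call. For Rodeo against glyphosate in trunk kidney, same-numbered libraries had a positive but low r. There the block gave 8 higher and 8 lower contigs at an unadjusted p under 0.05 in edgeR, in place of 7 and 9. Exceptions were head kidney Rodeo against glyphosate, with 2 calls by DESeq2 and 4 without the filter, and the glyphosate interaction, with 2 by DESeq2. The libraries that matched none gave no call in either interaction, but 2, 1 and 3 calls in head kidney and 8, 2 and 6 in trunk kidney, for glyphosate against control, Rodeo against control and Rodeo against glyphosate; these fits leave 1 library in 2 of the 3 groups, which is assumed to vary like the others. There LMB_Assem.870.CB4 reversed to -0.75 for glyphosate against control in head kidney. Of 270 values of named contigs under alternatives, 262 kept their direction and side, 7 passed the threshold and 1 reversed.

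The median correlation across trunk kidney libraries was 0.40 on library totals and 0.19 with the replicate block, and 0.12 to 0.16 leaving out 1 library. In head kidney it was 0.21 on library totals, 0.26 with group means removed, 0.16 with the replicate block, 0.39 for the top 100, 0.22 for the top 400 and 0.26 with the ratio on TMM-scaled CPM, which shares 134 of the 200 contigs, and 0.29 to 0.34 leaving out 1 library. The summed share without the 10 most abundant contigs was 5.94%, 4.90% and 5.73% in head kidney (control, glyphosate, Rodeo) and 0.438%, 0.325% and 0.433% in trunk kidney; that of all 200, scaled over 24 libraries, was 0.885% in trunk kidney glyphosate against 0.808% in controls, the reverse of the order on library totals. Leaving out 1 library gave 8.29% to 10.3%, 9.93% to 12.1% and 9.98% to 11.9% in head kidney, and 0.664% to 0.805%, 0.556% to 0.652% and 0.677% to 0.854% in trunk kidney. The causes of these shifts were not tested.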
